A study of Mus musculus with 56 samples.

Results

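Gene expression in the forestomach of mice given the lowest of 3 chrysene doses was compared with that of mice given the vehicle alone. The comparison held 10 of the 56 arrays of the series, chosen by the tissue and dose step in the sample titles: 5 forestomach arrays at dose step D1 and 5 at D0, 1 mouse per array. All mice were males of the strain MutaMouse, a transgenic line made for scoring mutations in a bacterial reporter gene, and were about 14 weeks old. The D1 mice (numbers 6 to 10) received 17.5 mg chrysene per kg body weight per day in olive oil, and the D0 mice (numbers 1 to 5) olive oil, both by gavage on 28 consecutive days, with the tissue taken 72 hours after the last dose. RNA came from random sections of whole forestomach, so that several cell types contributed to each value. Each array held the RNA of 1 mouse in the dye Cy5 and a universal reference RNA pooled from 11 mouse cell lines in Cy3, and expression is given as the log2 ratio of Cy5 over Cy3. The 9 forestomach arrays of the higher doses, 50 mg/kg (D2, 4 mice) and 150 mg/kg (D3, 5 mice), entered the estimate of the spread, the filter on dim probes and side-by-side values.

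Chrysene is a polycyclic aromatic hydrocarbon, a class of combustion products that bind the aryl hydrocarbon receptor (AhR). The bound receptor pairs with ARNT on xenobiotic response elements and switches on Cyp1a1, Cyp1b1 and other genes of foreign-compound metabolism, whose enzymes can turn the hydrocarbon into DNA-binding products. DNA damage in turn activates p53 and its targets. The mouse forestomach is a non-glandular pouch lined by cornified squamous epithelium over connective tissue and smooth muscle, and it is the first tissue that a gavaged compound meets.

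The arrays carried the markers of this tissue. The squamous keratins Krt5 and Krt14, the cornified envelope protein loricrin (Lor) and the smooth muscle actin Acta2 were well above background on 10 of 10 arrays. The glandular stomach, which adjoins the forestomach, was also represented, and unequally. The mean log2 ratio over 14 glandular stomach genes was 0.79, 6.98, 6.17, 0.53 and 5.70 in D0 mice 1 to 5 and 0.78, 0.19, 5.91, 0.50 and 6.24 in D1 mice 6 to 10. Thus 3 D0 and 2 D1 arrays had high levels of genes such as Atp4a and Atp4b (the parietal cell proton pump) and Gkn2 (a gastrokine). On slides 1 and 2 the D0 and D1 mice were matched for this signal, whereas on slide 3 both D0 mice and 1 of 2 D1 mice had it. Slide 1 held only 1 D0 and 1 D1 array, so that values within slide 1 below compare 1 mouse with 1 mouse. Slides 2 and 3 each held 2 D0 and 2 D1 arrays. Brightness also differed by slide. The 95th percentile of the Cy5 signal was 278.5 to 501 on the D0 arrays and 501.4 to 801.8 on the D1 arrays of slides 1 and 2, against 5887 and 6220 (D0) and 2412 and 6172 (D1) on slide 3, so that on slides 1 and 2 each D1 array was brighter than the D0 arrays of its slide. All 5 D1 arrays lay in column 2 of their slides, and 4 of the 5 D0 arrays in column 1, so that effects of column and of dose cannot be told apart.

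No gene passed the limits at 17.5 mg/kg. Of 27491 probes tested with limma, 0 (0%) combined a fold change of at least 1.5 with an adjusted p (Benjamini-Hochberg) of 0.05 or less, and the smallest adjusted p was 0.936. With an unadjusted p no higher than 0.05, 1145 probes were counted (4.16%), 619 higher and 526 lower at D1, and 1028 of them differed by at least 1.2-fold. The median log2 fold change over all probes was 0.00, the extremes were -2.28 and 1.88, and the median standard error was 0.17. In 198 probes (0.72%) all 5 D1 arrays lay beyond all 5 D0 arrays. Of 14072 named genes (1 probe each), 3.01% were higher and 2.08% lower with an unadjusted p no higher than 0.05 (the unadjusted limit). These shares are the background for the counts of the main fit below. For alternative fits, the share set beside a count is of all probes in both directions, like the 4.16% above. It is an unlike measure to a count of genes in 1 direction. In this comparison no gene described below passed the adjusted limit, and the smallest adjusted p of a named gene was that of Ltv1 (0.936).

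**Figure D1:**
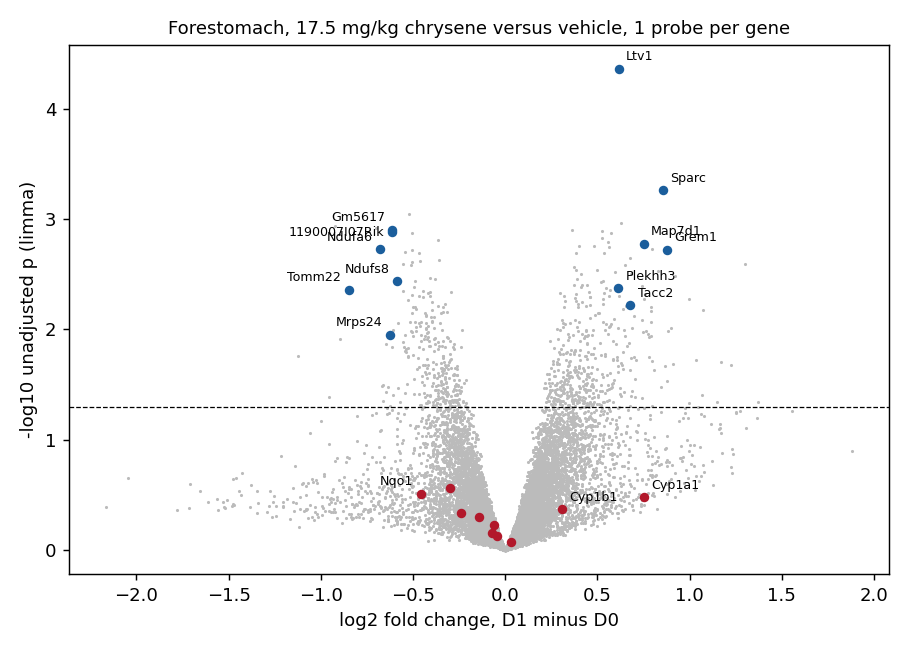
Each point is 1 of 14072 named genes, with the log2 fold change (D1 minus D0) on the horizontal axis and the negative log10 of the unadjusted limma p on the vertical axis. The dashed line marks the unadjusted limit, blue points are the 12 genes chosen because their arrays did not overlap between the groups, and red points are Cyp1a1, Cyp1b1, Ahrr, Tiparp, Nqo1, Aldh3a1, Ahr, Cdkn1a, Mdm2 and Ccng1, which lie below the line.

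None of the AhR target genes passed the test at this dose. Promoters of 2 of them, taken from RefSeq (GRCm38.p6) from 250 bases before to 50 bases after the gene start, are shown because they hold the core GCGTG of the xenobiotic response element that the receptor binds. Capitals mark the core on either strand. Cyp1a1 (chr9:57697363-57697662, + strand) and Cyp1b1 (chr17:79715012-79715311, - strand) each hold 1 match in this window. Ahrr holds 3, Tiparp 1, and Cyp1a2, Nqo1 and Cyp2s1 hold 0. Of 27025 promoters 32.5% hold at least 1, and of the 10 AhR targets tested for which a promoter was at hand 7 do (70%).
Cyp1a1: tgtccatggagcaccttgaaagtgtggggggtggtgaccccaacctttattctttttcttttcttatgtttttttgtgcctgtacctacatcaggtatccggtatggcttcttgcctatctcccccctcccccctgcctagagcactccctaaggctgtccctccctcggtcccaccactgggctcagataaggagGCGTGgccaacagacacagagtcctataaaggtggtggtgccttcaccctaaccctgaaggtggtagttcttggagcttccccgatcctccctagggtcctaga
Cyp1b1: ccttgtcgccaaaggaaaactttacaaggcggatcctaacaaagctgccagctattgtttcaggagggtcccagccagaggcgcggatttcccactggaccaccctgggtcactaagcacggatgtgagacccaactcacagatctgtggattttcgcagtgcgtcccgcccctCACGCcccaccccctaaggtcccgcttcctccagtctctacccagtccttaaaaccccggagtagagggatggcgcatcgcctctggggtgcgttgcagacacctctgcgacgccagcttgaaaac

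Cyp1a1, the AhR-inducible monooxygenase, was at background in 9 of the 10 mice and high in 1. Its log2 ratios were 0.53, 0.02, 0.01, 0.10 and 0.23 in D0 mice 1 to 5, none of them well above background. In D1 mice 6 to 10 they were 0.39, 0.06, 3.58, 0.44 and 0.19, and only mouse 8 was well above background. The probe was kept for testing because 1 D2 and 2 D3 arrays were also well above background, and its adjusted p was 0.9999. Since only 1 of the 10 arrays measured the probe, no fold between the groups is read from it.

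**Figure D2:**
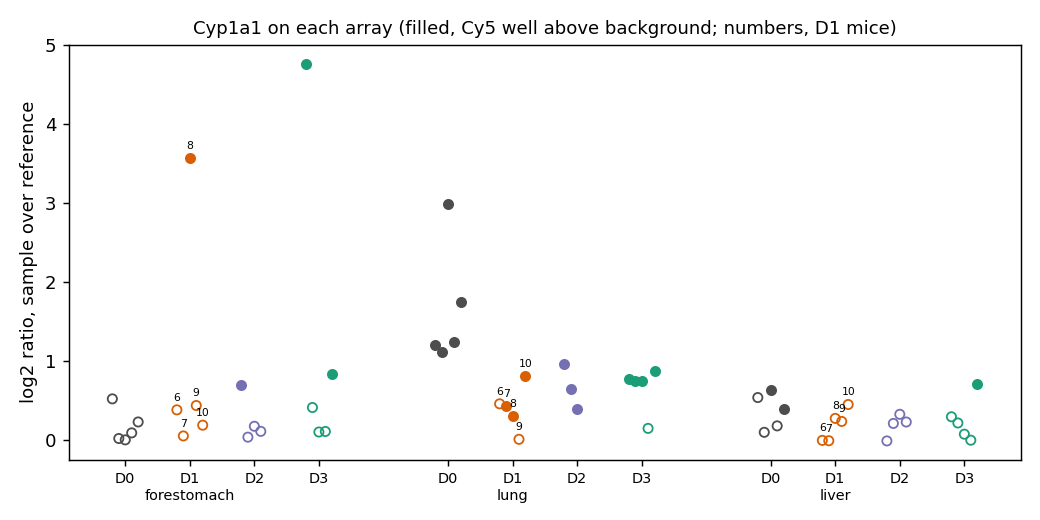
The vertical axis is the log2 ratio of Cyp1a1 on each of the 56 arrays, by tissue and dose step on the horizontal axis. In the forestomach mouse 8 stands at 3.58 at D1 and mouse 16 at 4.77 at D3, while the same mouse 8 was at 0.30 in lung and 0.28 in liver.

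Other AhR genes in mouse 8 were less distinct. It was picked out by its Cyp1a1 value. Of the 12 AhR targets tested, it also had the highest D1 ratio for Cyp1b1, Nqo1, Gsta1 and Gsta2. The share of all genes for which mouse 8 ranked highest was not counted. Its glandular list mean was high (5.91), and the part of that signal in these values was not tested. Cyp1b1, a monooxygenase that oxidizes the hydrocarbon ring, was at 0.32 in mouse 8 and between -0.84 and -0.26 in the other D1 mice, and D0 ran from -2.0 to -0.22. The quinone reductase Nqo1 was at 2.95 in mouse 8, inside the D0 range of 2.03 to 3.71. Gsta2, a glutathione S-transferase, was at 7.12, inside the D0 range of 5.09 to 7.39. The ADP-ribosyltransferase Tiparp (0.09) and the aldehyde dehydrogenase Aldh3a1 (2.65) in mouse 8 also lay within or close to the D0 values. The receptor repressor Ahrr was well above background on only 2 D0 and 2 D1 arrays, and not on that of mouse 8. Its ratio in mouse 8 and its difference between the groups are therefore not given.

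Between the groups, no difference in the following genes was larger than the spread between mice. Log2 fold changes were 0.31 for Cyp1b1, -0.46 for Nqo1, -0.24 for Aldh3a1, 0.03 for Tiparp and -0.06 for the receptor Ahr (0.03 under median centring). The exact permutation p lay between 0.317 and 0.825. Single mice moved them: Cyp1b1 was 0.14 without D1 mouse 8 and -0.02 without D0 mouse 2. Nqo1 was -0.21, -0.30 and -0.26 without D0 mice 2 and 3 and D1 mouse 9, and Aldh3a1 ran from -0.46 without D1 mouse 6 to -0.10 without D1 mouse 9. Second probes had the opposite sign for Aldh3a1 (0.08, unadjusted p = 0.808) and Tiparp (-0.27, unadjusted p = 0.201). The second AhR-inducible monooxygenase, Cyp1a2, was not tested, because 0 of the 19 forestomach arrays showed it well above background. Of the 12 AhR targets tested, 1 was higher and 0 lower at the unadjusted limit, and their median log2 fold change was 0.04. The median was 0.006 without D0 mouse 2 and 0.098 without D0 mouse 3, and ran from -0.10 to 0.15 over all alternatives. The 1 target counted was Cyp2s1, an extrahepatic monooxygenase. The Cyp2s1 log2 ratio was 4.24, 4.59, 4.81, 3.07 and 5.03 at D0 and 4.96, 4.80, 4.92, 4.89 and 5.04 at D1. The difference was 0.58 (unadjusted p = 0.034), and the groups overlapped. Without D0 mouse 4, on the dimmest array, it was 0.26. The D1 mice were close together, at a mean of 4.92 ± 0.09, and D0 at 4.35 ± 0.77 (SD, n = 5 each).

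Among p53 targets none passed the test either. Cdkn1a, the cell cycle inhibitor p21, differed by -0.14, Mdm2, the ubiquitin ligase that limits p53, by -0.07, and Ccng1, a cyclin of the damage response, by -0.30, with exact permutation p of 0.563, 0.754 and 0.365. Ccng1 was -0.14 without D0 mouse 3, -0.17 without D1 mouse 6 and -0.52 without D0 mouse 5. Cdkn1a and Mdm2 lay slightly above 0 when the ratios were normalized here from the scanner values or centred on the median. Of 20 targets tested 1 was higher and 0 lower at the unadjusted limit, with a median of 0.05, which was -0.06, -0.07 and -0.02 without D0 mice 2 and 5 and D1 mouse 9 and 0.17 without D0 mouse 4. The exception was Aen, an apoptosis-enhancing nuclease. It stood at -0.98, -1.09, -0.93, -1.31 and -0.86 at D0 and at -0.29, -0.61, -0.74, -0.67 and -0.47 at D1, so that its groups did not overlap, and the difference was 0.48 ± 0.13 (SE, unadjusted p = 0.0018). A second Aen probe differed by 0.19 (unadjusted p = 0.219). None of 23 DNA repair and translesion synthesis genes was counted in either direction (median 0.08, but -0.03 and -0.04 without D0 mice 2 and 5 and 0.17 without D0 mouse 4). Of 20 proliferation genes, Birc5, a mitotic survival protein, and Mcm6, a subunit of the replicative helicase, were counted as higher (0.41 and 0.42), although 2 further Birc5 probes gave -0.08 and 0.11, and Mki67 (0.34) and Pcna (-0.12), markers of cycling cells, were not.

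Genes with arrays that did not overlap between the groups were chosen by a rule on separation, fold change and signal, so their separation is a description. Ltv1, a factor of small ribosomal subunit assembly, was at -0.44, 0.04, -0.48, -0.35 and 0.06 in D0 mice 1 to 5 and at 0.40, 0.35, 0.43, 0.39 and 0.35 in D1 mice 6 to 10. The D1 values were all nearly the same, and the D0 values were lower on the dim slides 1 and 2 than on slide 3. Its log2 fold change was 0.62 ± 0.11 (SE), and the differences within slides 1, 2 and 3 were 0.79, 0.82 and 0.32. Sparc, the collagen-binding matrix protein osteonectin, was at -1.52, -1.42, -1.51, -1.63 and -0.93 at D0 and at -0.77, -0.80, -0.48, -0.58 and -0.11 at D1. Its fold change of 0.85 ± 0.20 on the log2 scale came from 1 probe, while a second probe gave 0.22 (unadjusted p = 0.392). Grem1, a secreted antagonist of bone morphogenetic proteins, was at -0.91, -1.84, -1.02, -1.22 and -1.44 at D0 and between -0.57 and -0.23 at D1, a difference of 0.88 ± 0.24. Of the other genes higher at D1, the microtubule-associated Map7d1 differed by 0.75, Tacc2, a centrosomal coiled-coil protein, by 0.68 and Plekhh3 by 0.61.

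**Figure D3:**
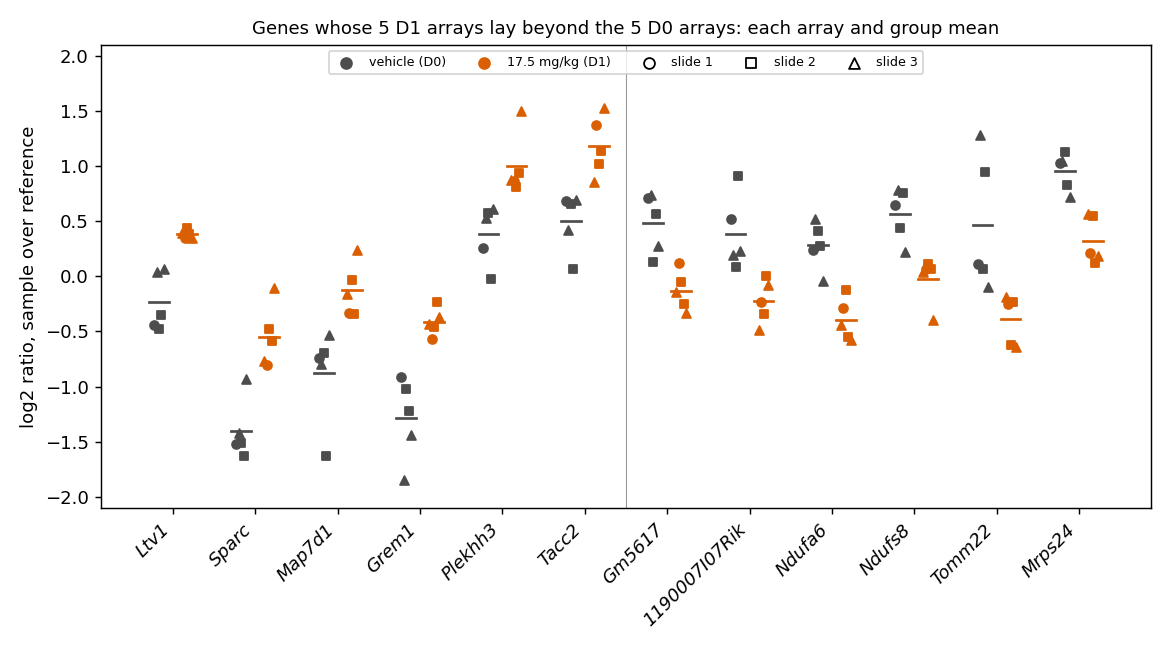
Points are the log2 ratios of single arrays for the 6 genes higher and the 6 lower at D1 whose groups did not overlap, horizontal bars are group means (n = 5), and the symbol shape gives the slide. Ltv1 shows 5 D1 values between 0.35 and 0.43, and Ndufa6, Ndufs8, Tomm22 and Mrps24 show D1 below D0.

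The 6 lower genes included at least 4 that encode mitochondrial proteins. Ndufa6, an accessory subunit of respiratory complex I, was at 0.24, 0.52, 0.41, 0.28 and -0.04 at D0 and at -0.44, -0.29, -0.12, -0.55 and -0.57 at D1 (difference -0.68 ± 0.19, SE). Ndufs8, an iron-sulfur subunit of the same complex, was at 0.64, 0.78, 0.43, 0.75 and 0.22 at D0 and at 0.04, 0.07, 0.11, 0.07 and -0.40 at D1 (difference -0.59 ± 0.18). Tomm22, a receptor of the outer-membrane protein import pore, differed by -0.85 ± 0.26, with D0 spread widely from -0.10 to 1.28 and D1 from -0.64 to -0.19. Mrps24, of the small mitochondrial ribosomal subunit, differed by -0.63 ± 0.22. The remaining pair, Gm5617 and 1190007I07Rik, each differed by -0.61. Tomm22 was also lower at D1 in the other tissues, with differences of -1.16 in lung and -0.54 in liver. Those of Ndufa6, Ndufs8 and Mrps24 in lung and liver lay between -0.10 and 0.01.

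After these genes had been seen, whole families were taken by the form of their symbols and described, with no test. Of 87 subunits and assembly factors of the respiratory chain and ATP synthase, 73 were below 0, and 24 were lower and 0 higher at the unadjusted limit (27.6%, against 2.08% of all genes lower), with a median of -0.31. Those with D1 below every D0 array numbered 12, against 0.384% of all genes. They were Ndufa6, Ndufa11, Ndufa12, Ndufb6, Ndufc1, Ndufs3, Ndufs4 and Ndufs8 of complex I, Uqcc3 of complex III assembly, Cox6b1 of cytochrome oxidase and Atp5e and Atp5j2 of ATP synthase. By complex, the counts at that limit were 15 of 38 for complex I (median -0.33), 0 of 4 for complex II (-0.26), 3 of 12 for complex III (-0.17), 2 of 16 for complex IV (-0.34) and 4 of 17 for ATP synthase (-0.16). Mitochondrial ribosomal proteins gave 14 lower and 0 higher of 77 (median -0.16). Their median was -0.09 without D1 mouse 10 and -0.05 under median centring, where 0 were lower in a fit with 0.051% of all probes past the limit. Cytosolic ribosomal proteins gave 2 lower of 80 (median -0.07), and proteasome subunits 1 higher and 1 lower of 38 (-0.11). With 1 mouse left out, the cytosolic median ran from -0.149 to -0.015 and the proteasome median from -0.204 to -0.016. The ribosomal counts changed when single arrays were left out. Without D0 mouse 3 they were 24 mitochondrial and 10 cytosolic, without D0 mice 1 or 4 they were 7 or 8 mitochondrial and 0 cytosolic, and without D1 mouse 8 they were 9 and 0. In these fits 5.80%, 3.70%, 3.67% and 4.45% of all probes passed. With ratios normalized here from the scanner values the counts were 11 and 6, beside 4.18% of all probes. Some fits gave more cytosolic members higher than lower. They were 5 higher and 1 lower without D0 mouse 5, 8 and 3 without slide 3 and 3 and 2 with array weights. In these fits 6.69%, 8.22% and 5.39% of all probes passed. The difference between the families was not tested.

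The respiratory family mean per array was 0.35, 0.92, 0.70, 0.24 and 0.47 in D0 mice 1 to 5 and 0.24, 0.13, 0.48, 0.21 and 0.28 in D1 mice 6 to 10, so that the family means overlapped between the groups. Arrays with a high glandular list mean were those of D0 mice 2 (6.98), 3 (6.17) and 5 (5.70) and D1 mice 8 (5.91) and 10 (6.24). The respiratory mean was highest in mice 2 and 3, followed by mice 8 (0.48) and 5 (0.47), and was 0.28 in mouse 10. The median difference was -0.25 within slide 1 (1 D0 and 1 D1 mouse) and -0.29 within slide 2 (2 of each). The glandular signal was matched on these slides. Within slide 3, where it was not, the median difference was -0.45. With the glandular mean as a covariate, an alternative added after the data were seen, the median was -0.20 and 22 members were lower and 1 higher, in a fit where 6.63% of all probes passed the unadjusted limit. With Cy5 brightness as a covariate it was -0.32 with 28 lower, beside 7.94% of all probes. Under median centring in place of the curve fit the median was -0.20, and 0 were lower in a fit where 0.051% of all probes passed. Relative to the same D0 arrays, the family median was -0.06 at D2 and -0.27 at D3. The glandular mean was 5.53 to 7.08 on all 4 D2 arrays, and at D3 it was 7.03 in mouse 19 and 0.41 to 1.99 in the other mice, and its part in these values was not tested. The same genes had a median of -0.06 in lung and 0.00 in liver at D1. In a bulk sample, fewer cells of a type and less RNA per cell cannot be told apart.

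Promoters of 2 complex I genes from the lower set are shown as 1 with and 1 without a site for nuclear respiratory factor 1, an activator of respiratory genes, searched on both strands as GCGC, any 1 base, then TGCGC. Ndufa6 (chr15:82354242-82354541, - strand) holds 1 match, in capitals, starting 23 bases after the gene start, and Ndufs8 (chr19:3912725-3913024, - strand) holds 0 in this window. A promoter was at hand for 71 family members, and 17 of them (23.9%) hold it, against 4.78% of all promoters. The YY1 site AAGATGGCG was found in 6 (8.45%, against 1.49%) and the estrogen-related receptor site TNAAGGTCA in 3 (4.23%, against 1.26%).
Ndufa6: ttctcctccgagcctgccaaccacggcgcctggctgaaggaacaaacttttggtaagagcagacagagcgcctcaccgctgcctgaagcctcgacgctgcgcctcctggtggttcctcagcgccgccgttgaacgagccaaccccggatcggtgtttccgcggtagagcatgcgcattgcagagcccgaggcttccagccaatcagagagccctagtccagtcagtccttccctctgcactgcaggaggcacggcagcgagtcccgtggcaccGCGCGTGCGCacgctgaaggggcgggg
Ndufs8: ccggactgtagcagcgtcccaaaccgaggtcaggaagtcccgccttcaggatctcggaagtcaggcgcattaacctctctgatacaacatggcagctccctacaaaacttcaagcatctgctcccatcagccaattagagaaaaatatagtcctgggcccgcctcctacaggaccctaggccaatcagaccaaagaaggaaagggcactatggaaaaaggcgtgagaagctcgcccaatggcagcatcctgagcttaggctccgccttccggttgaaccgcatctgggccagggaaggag

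**Figure D4:**
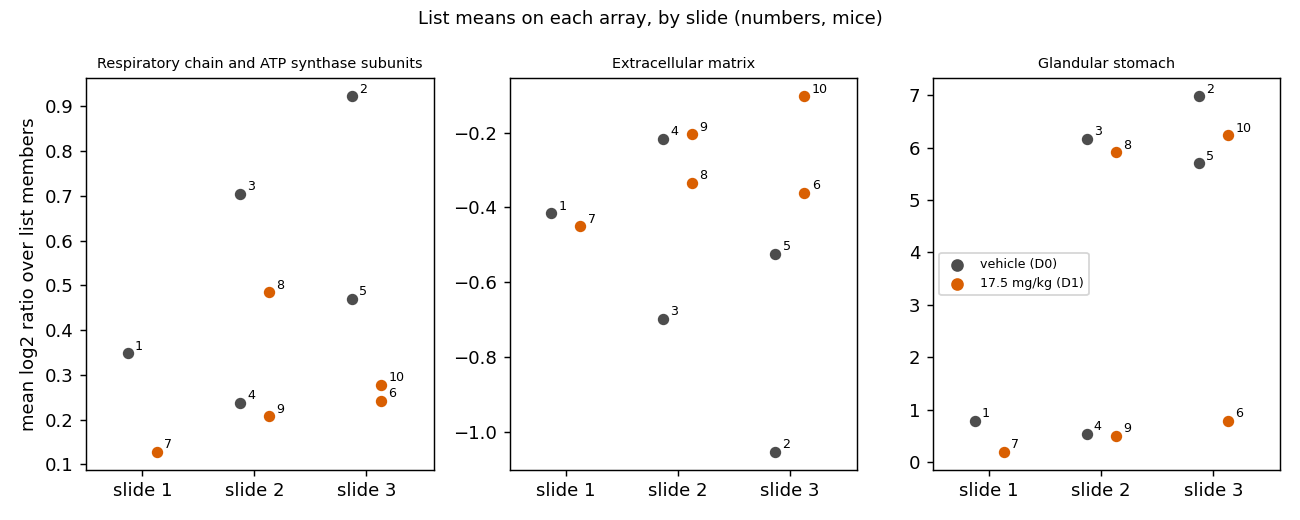
Each point is the mean log2 ratio over the members of a list on 1 array, by slide on the horizontal axis, with the mouse number beside it. The respiratory means of D1 lie below those of D0 on slides 1 and 3 and overlap them on slide 2, where D1 mouse 8 (0.48) is above D0 mouse 4 (0.24), the matrix means differ chiefly on slide 3, and the glandular means separate into arrays near 6 and arrays below 1.

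Of 21 extracellular matrix genes tested 5 were higher at D1 and 0 lower at the unadjusted limit (23.8%, against 3.01% of all genes), with a median of 0.27. They were Sparc, the basement membrane collagen Col4a1 (0.69 ± 0.24), the fibrillar collagen Col1a1 (0.61 ± 0.23), the adhesive glycoprotein Fn1 (0.80 ± 0.38) and the microfibril protein Fbn1 (0.44 ± 0.21). Col4a1 was at -0.37, -0.36, 0.15, 0.27 and -0.01 at D0 and at 0.31, 0.39, 0.68, 0.50 and 1.25 at D1, with D1 just above D0. Among all 27 collagen chains tested, taken by symbol, 25 were above 0, with a median of 0.27. At that limit 2 were higher and 0 lower. The 2 were Col4a1 and Col1a1, already counted in the matrix list, so that the lists overlap. Only 10 chains had probes well above background on all 10 arrays (median 0.28, 2 higher, beside 8.17% of all probes). The median over all chains was 0.12 without D1 mouse 10 and 0.08 without slide 3. The collagen count was 5 without D0 mouse 5, 5 with slide as a block, 4 without D1 mouse 9 and 1 without D1 mouse 10. In these fits 6.69%, 7.42%, 3.76% and 3.25% of all probes passed. Col3a1 (0.02 ± 0.23) and Col5a2 (0.00 ± 0.14) were among those not counted. Of the matrix list, 3 members were counted with ratios normalized here from the scanner values (4.18% of all probes) and 0 under median centring (0.051% of all probes). The matrix count was 2 without D0 mouse 2 (median 0.16), 2 without D1 mouse 10, 3 without D1 mouse 9 and 2 with array weights (median 0.16). In these fits 3.94%, 3.25%, 3.76% and 5.39% of all probes passed. The matrix list median was -0.06 within slide 1, 0.16 within slide 2 and 0.62 within slide 3. Without slide 3 it was 0.08, with 1 member higher in a fit where 8.22% of all probes passed. The matrix mean was lowest on the arrays of D0 mice 2 (-1.05) and 3 (-0.70), which had the highest glandular means of D0. It was highest in D1 mouse 10 (-0.10), whose glandular mean was as high (6.24).

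Squamous and smooth muscle list medians were above 0. Of 24 cornified envelope genes 23 were above 0 with a median of 0.51, but 1 alone, the corneodesmosome protein Cdsn (0.58, and 0.32 without D0 mouse 3), was counted as higher. With slide as a block 7 were, beside 7.42% of all probes. The median was 0.15, 0.22 and 0.21 without D0 mouse 3, D0 mouse 4 and D1 mouse 6, each with 0 counted, in fits where 5.80%, 3.67% and 3.84% of all probes passed. Without D0 mouse 5 it was 0.77, with 8 counted beside 6.69% of all probes. The cornified list mean ran from 3.14 to 5.31 at D0 and from 3.92 to 5.93 at D1. All 11 smooth muscle genes were above 0 (median 0.49), with the intermediate filament Des counted (0.84). D1 mouse 10 had the highest smooth muscle mean, and without it the median was 0.18 and Des 0.56. The median was 0.28 without D0 mouse 4 and 0.75 without D0 mouse 5. The 8 basal squamous genes had a median of 0.26, with 0 counted (0.15 without D1 mouse 10 and 0.43 without D1 mouse 9). On the other side, the 14 glandular genes were all below 0 with a median of -1.23 and 0 counted, and adipocyte (-0.53) and hepatocyte (-0.39) lists were below 0, also with 0 counted. Within slide 3 these 3 lists differed by -3.02, -1.66 and -1.37, and without slide 3 their medians were -0.19, 0.20 and 0.11. With 1 mouse left out the glandular median ran from -2.21 to -0.64, the adipocyte median from -0.88 to 0.02 (without D0 mouse 5) and the hepatocyte median from -0.75 to -0.06, and the adipocyte and hepatocyte medians were 0.14 and 0.016 over probes well above background on all 10 arrays. On slide 3 the glandular list mean was 0.78 in D1 mouse 6 and 6.24 in D1 mouse 10, whereas the adipocyte mean of mouse 6, 2.54, was near that of mouse 10 (2.53), with 3.94 and 4.08 in the D0 mice. The part of these tissue shares in other results was not tested beyond the values given.

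**Figure D5:**
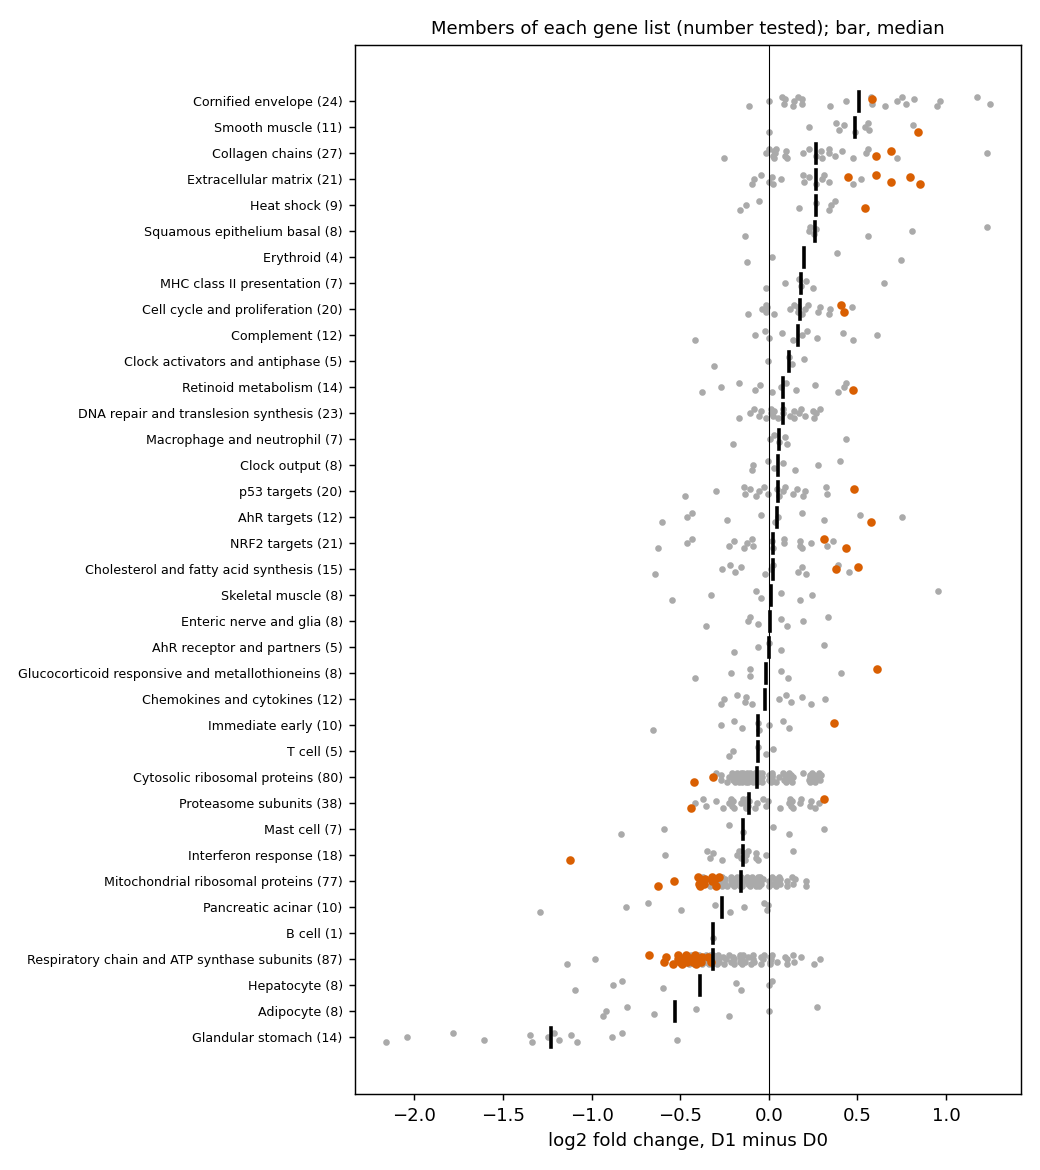
Points are the log2 fold changes (D1 minus D0) of the members of each list, with the number tested in parentheses, orange where a gene passed the unadjusted limit, and bars mark the medians. The respiratory and mitochondrial ribosomal families carry many orange points below 0 and the matrix list 5 above 0, whereas most other lists carry 0 to 2.

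Of 18 interferon response genes tested 17 were below 0, with a median of -0.15, and 1 was counted as lower and 0 as higher. With slide as a block 5 were counted as lower, beside 7.42% of all probes. The median ranged from -0.30 without D0 mouse 5 to -0.06 without D1 mouse 6. The 1 counted without the block was Oas1a, an oligoadenylate synthetase that senses double-stranded RNA, with log2 ratios of -2.25, -0.61, -0.13, -1.52 and -1.51 at D0 and -3.27, -2.46, -1.35, -2.1 and -2.48 at D1. The groups overlapped, the difference was -1.12 ± 0.43, and a second probe gave -0.78 (unadjusted p = 0.0095). Isg15, a ubiquitin-like interferon product, differed by -0.59. The list median was -0.20, -0.26 and 0.00 within slides 1, 2 and 3. Only 5 of the 18 genes had probes well above background on all 10 arrays. Their median was -0.13 with 0 counted, in a fit where 8.17% of all probes passed. The promoter of Oas1a (RefSeq, chr5:120907476-120907775, - strand) is shown because it holds the interferon response element, searched on both strands as GAAA, any 2 bases, then GAAA, in 2 overlapping copies (capitals) starting 20 and 14 bases before the gene start. A promoter was at hand for 15 list members, and 9 of them hold it (60.0%), against 3.49% of all promoters.
Oas1a: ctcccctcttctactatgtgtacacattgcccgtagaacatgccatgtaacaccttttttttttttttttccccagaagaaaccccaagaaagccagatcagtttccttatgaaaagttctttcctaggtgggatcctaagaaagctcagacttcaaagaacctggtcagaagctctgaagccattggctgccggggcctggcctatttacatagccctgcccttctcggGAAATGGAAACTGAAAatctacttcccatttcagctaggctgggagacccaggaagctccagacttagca

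The remaining lists held few genes past the unadjusted limit. Of 21 NRF2 targets 2 were higher, Gstm1 (0.44), a glutathione S-transferase, and Srxn1 (0.31), sulfiredoxin. Of 15 genes of cholesterol and fatty acid synthesis 2 were higher, among them Fdps (0.50, and 0.32 without D0 mouse 4), farnesyl diphosphate synthase. Single genes were higher among heat shock proteins (Hspb1, 0.54), immediate early genes (Egr1, 0.37), metallothioneins and glucocorticoid responsive genes (Mt2, 0.61) and retinoid genes. The last was the retinoic acid receptor Rarg, which stood between -0.59 and -0.19 at D0 and between -0.12 and 0.29 at D1. Egr1 ran from 0.11 to 0.66 over the alternatives, and its differences within slides 1, 2 and 3 were 0.45, -0.07 and 0.76. Lists of clock genes, complement, chemokines, MHC class II presentation, AhR partners and the immune, nerve, erythroid, pancreatic and skeletal muscle cell types had 0 members past it, and 1 of 6 B cell genes was bright enough to be tested.

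Values at the higher doses, which share the D0 arrays, are set beside these. Ltv1 averaged -0.23 at D0, 0.38 at D1, 0.31 at D2 and 0.57 at D3. Ndufa6 averaged 0.28, -0.40, -0.15 and -0.42 in the same order, and Grem1 -1.29, -0.41, -0.96 and -0.80. The D2 and D3 arrays with the highest glandular means, mice 12 (7.08) and 19 (7.03), had Ndufa6 at 0.29 and 0.22. The other D2 and D3 mice lay between -0.87 and -0.19. Among these, D2 mice 11, 13 and 15 also had high glandular means (5.87, 5.69 and 5.53), with Ndufa6 at -0.27, -0.42 and -0.19. Mice 12 and 19 were on the bright slide 3, as was D3 mouse 20 (glandular mean 1.24, Ndufa6 -0.64). Mice 12 and 19 also had the lowest Grem1 ratios of their groups, -1.93 and -1.10. The part of the glandular signal and of the slide in these values was not tested.

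To ask whether the response to 17.5 mg/kg differed between tissues, the D1 minus D0 difference in forestomach was set against that in lung and in liver, in a fit of all 56 arrays. Against lung 0 of 32512 probes (0%) passed both limits, with a smallest adjusted p of 0.410 and 1543 probes at the unadjusted limit. Against liver 0 of 29588 passed (0%), with a smallest adjusted p of 0.105 and 1590 probes at that limit. The probe with the smallest p against lung was that of Grem1, which differed by 0.88 in forestomach and -0.26 in lung, a difference of 1.13 ± 0.23 (SE, adjusted p = 0.410).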

How the data were processed

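Forestomach RNA of 10 mice (5 D0, 5 D1) was analysed on 2-colour Agilent arrays without dye swap. The authors deposited a table of log2 ratios (Cy5 over Cy3), 1 for each probe on each array, normalized per the study's methods by LOWESS on median signals without background subtraction. The scanner files hold, per the file headers, median spot and background intensity and flags with values of 0 or 1 (other than intensity) from Feature Extraction 10.7.3.1, which were used for the filter and the alternatives. Over the 56 arrays the deposited log2 ratios correlated with ratios normalized here at 0.977 to 0.998.

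Probes were named through RefSeq accessions (GRCm38.p6): 26413 of 55681 had a symbol. Probes with Cy5 well above background on at least 3 of 19 forestomach arrays were kept (27527), less 36 with a non-uniform spot. The study's methods name MAANOVA. Here limma 3.58.1 (R 4.3.3) fitted a mean per dose on all 19 arrays, with Benjamini-Hochberg adjustment over all probes, an adjusted p limit of 0.05 and a fold limit of 1.5. A gene was represented by its tested probe with the highest mean Cy5 signal. Named genes were 11 AhR and p53 genes, any gene past both limits, the 6 higher and 6 lower genes of smallest p whose groups did not overlap at 1.5-fold, and up to 3 genes per list with an unadjusted p of 0.05 or less. Fbn1, Fn1 and other list members were named after their values were seen. Some genes of the lists are not reported here by name. The members and lists were chosen with earlier results of these data known. The number of arrays limits the precision. The fit was tested on simulated data.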

Additional observations from a re-analysis of the deposited data

Results flagged for a closer look

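In groups of 5 arrays, 1 array was called far from the others where its gap to the nearest, over the whole range, passed Dixon's critical value of 0.710. Of 144 groups examined 8 were called, and chance alone calls about 1 in 20. Cyp1a1 was at 3.58 in D1 mouse 8 against 0.06 to 0.44 in the other D1 mice. Cyp1b1 was at -2.0 in D0 mouse 2 against -0.43 to -0.22. Map7d1 was at -1.63 in D0 mouse 4, the dimmest array, against -0.79 to -0.53. Plekhh3 was at 1.5 in D1 mouse 10 against 0.81 to 0.94, and Ndufs8 in the same mouse at -0.40 against 0.04 to 0.11. Gstm1 was at 1.40 in D0 mouse 3 against 1.86 to 2.04. The erythroid list mean was 4.76 in D1 mouse 6 against 2.75 to 3.31, and the enteric nerve and glia list mean was 2.28 in D1 mouse 10 against 0.52 to 1.03.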

How the results depend on the processing

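The count of 0 genes at D1 held in 22 of 23 alternatives run. The exception, added after the data were seen, was leaving out slide 3, which gave 2 genes, Mall (2.83, adjusted p = 0.049) and the unnamed transcript XR_034084. The share of probes with an unadjusted p of 0.05 or less, 4.16%, was 0.051% under median centring, 7.42% with slide as a block, 8.17% over probes well above background on all 10 arrays, 6.63% with the glandular list and 7.94% with Cy5 brightness as a covariate, 2.44% without slide 2 and 8.22% without slide 3. Leaving out 1 mouse gave 3.25% to 6.69%, the highest without D0 mouse 5. Against lung, normalization here from the scanner values gave 1 gene, Grem1, and leaving out 1 mouse gave 0 to 2 (Unc93a2 and Klhl18, without mouse 5). Against liver, leaving out 1 mouse gave 0 to 2: the unnamed XM_896611 and XR_032706 without mouse 5, and XR_032706 alone without mouse 8. With the mouse number as a replicate block, pairing the tissues of a mouse, 0 genes were called against lung and 0 against liver. Signs turned for 7 named genes. Ahr was 0.033 under median centring. Cyp1a1, at background in 9 of 10 mice, came out at 0.092 without mouse 8 and -0.049 without slide 2, which holds mouse 8. In both fits every D0 and D1 array left was at background for Cyp1a1. Neither value therefore measures a difference between the groups, and nothing is read from this turn of sign. Cdkn1a was 0.040 under the scanner-value loess, 0.043 with normexp background and 0.11 under median centring. Mdm2 was 0.0049, 0.011 and 0.11 under these and 0.042 without slide 2, and Ccng1, 0.0099 without slide 2, ranged from -0.52 to -0.14 with 1 mouse left out. With 1 mouse left out, Cyp1b1 ranged from -0.021 (without mouse 2) to 0.43, Tiparp from -0.035 to 0.11, Cdkn1a from -0.23 to 0.015 (without mouse 10) and Mdm2 from -0.20 to 0.036. The cause of these differences was not tested. Dim Cy5 signal on slides 1 and 2 limits what low genes can show.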
